A study of Mus musculus with 18 samples.

Results

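The genes described here build or mark motile cilia, in RNAseq data of dorsal spinal tissue (L3–5) of the mouse. They were chosen by name: axonemal dynein heavy and intermediate chains (Dnah, Dnai and Dnaic genes), cilia and flagella associated proteins (Cfap), radial spoke heads (Rsph) and tektins (Tekt), together with Ak7, Ccdc153, Fam216b, Hydin and Tmem212. Where a name had several loci, the locus with the highest mean level over the 6 groups was taken. This gave 59 genes of 18444 with a single name in all 3 tables, of which 49 reached 0.5 FPKM in at least 1 group, against 16918 of all genes. FPKM count fragments after scaling to exon length and to the size of the library, so they can be compared between genes of different length. The choice was not blind to the values: Ak7, Ccdc153 and Fam216b were selected on their large decrease after CFA in LacZ-expressing mice, and the highest locus and the 0.5 FPKM minimum also rest on measured levels. What follows is therefore a description without a test. The 3 genes just inside the minimum were Dnah6, Dnah9 and Dnah2os, with 0.508, 0.509 and 0.51 FPKM in their highest group, and the 3 just outside were Rsph6a, Cfap53 and Dnah7b, with 0.453, 0.471 and 0.491 FPKM.

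The mice were C57BL/6 (C57BL/6N in the study's methods), 3 months old, and all had received a recombinant adeno-associated virus (rAAV) into the lumbar spinal cord on both sides. The virus carried LacZ (a bacterial enzyme used as control), HDAC4 wt (wild type histone deacetylase 4, which shuttles between nucleus and cytoplasm) or HDAC4 3SA (a mutant that stays in the nucleus). Mice of each vector received saline or complete Freund's adjuvant (CFA), an inflammatory agent, in a hindpaw 24 h before collection, so that the 6 groups were LacZ saline, LacZ CFA, HDAC4 wt saline, HDAC4 wt CFA, HDAC4 3SA saline and HDAC4 3SA CFA. Each group held 3 mice, and no uninjected mice were among the samples. The tables give 1 FPKM value per group and no value per mouse, so no value below has an SD, the differences computed here have no replicate check, and the number of reads behind a value is not given in the tables (the study's methods state only a minimum per library). The results of the authors' own test across mice, which the tables also list, were not used. In whole tissue, fewer cells of a type and less RNA per cell cannot be told apart. The level of Hdac4 itself was 7.41 and 7.72 FPKM in the LacZ groups, 10.1 and 10.8 in the HDAC4 wt groups and 8.86 and 8.81 in the HDAC4 3SA groups.

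Motile cilia beat because dynein motors, fixed to the doublet microtubules of the axoneme, slide one doublet against the next. Outer and inner dynein arms supply force, radial spokes and the central apparatus control when each arm is active, and tektins and other proteins brace the doublets. In the spinal cord such cilia are borne by the ependymal cells that line the central canal, where they contact the cerebrospinal fluid. Transcription factors of the RFX family and the forkhead factor FOXJ1 are known to switch on many of these genes, RFX factors through an inverted repeat called the X-box.

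The sequence upstream of the start of transcription was therefore read for the genes of the rule. The RefSeq promoter table (GRCm38.p6) held a window for 41 of the 49 genes at the minimum level. The 250 bases before the start were searched for GTTNCC followed, after 0 to 3 bases, by GGNAAC, with at most 1 mismatch in the 10 fixed letters, which reads the same on both strands, and for the forkhead sequence TGTTTAC on either strand. The first was found in 9 of the 41 windows (22.0%) and in 5.02% of the 11644 windows of all genes at the minimum level. The second was found in 4 of the 41 windows (9.76%) and in 2.28% of all windows. The 9 windows with the inverted repeat belonged to Ccdc153, Dnaic1, Dnaic2, Cfap44, Cfap45, Cfap206, Tekt2, Tekt4 and Dnah9, and in 6 of them the match lay between bases -33 and -6 from the start. The forkhead sequence was in the windows of Ak7, Dnah17, Cfap20 and Cfap43. Of the genes named singly in the rule, Ccdc153, Hydin and Ak7 had a match, and their windows are shown to place it, 5′ to 3′ on the strand of the gene, with the match in capitals. Ccdc153 lies on the plus strand of chromosome 9 (chr9:44240427-44240676, bases -152 to -139 in capitals), Hydin, which codes for a protein of the central apparatus, on the plus strand of chromosome 8 (chr8:110266727-110266976, bases -21 to -8), and Ak7, which codes for an adenylate kinase of the axoneme, on the plus strand of chromosome 12 (chr12:105705732-105705981, bases -131 to -125).
Ccdc153: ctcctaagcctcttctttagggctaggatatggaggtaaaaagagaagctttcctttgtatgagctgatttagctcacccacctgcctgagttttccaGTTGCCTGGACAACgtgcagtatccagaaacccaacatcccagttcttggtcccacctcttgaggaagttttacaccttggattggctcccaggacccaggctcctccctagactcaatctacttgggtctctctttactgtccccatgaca
Hydin: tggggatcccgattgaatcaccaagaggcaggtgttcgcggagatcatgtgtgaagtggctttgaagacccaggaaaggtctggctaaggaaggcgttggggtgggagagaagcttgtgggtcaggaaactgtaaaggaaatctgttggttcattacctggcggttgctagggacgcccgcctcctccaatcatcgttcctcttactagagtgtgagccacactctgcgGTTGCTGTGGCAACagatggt
Ak7: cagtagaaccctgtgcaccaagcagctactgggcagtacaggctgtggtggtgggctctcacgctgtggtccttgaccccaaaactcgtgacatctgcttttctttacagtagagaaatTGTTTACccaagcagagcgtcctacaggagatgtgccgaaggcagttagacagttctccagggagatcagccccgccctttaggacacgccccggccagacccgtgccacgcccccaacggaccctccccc

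The windows of Fam216b and Tmem212 held neither sequence. A match is a description of the letters and does not show that a factor binds there. Of the genes that were lower after CFA in LacZ-expressing mice, which number 18, 15 had a window, 2 with the inverted repeat (13.3%) and 2 with the forkhead sequence (13.3%).

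CFA and saline were compared within each vector, which asks whether hindpaw inflammation goes with a change in the cilia genes and whether this differs with HDAC4. Changes are given as log2 of the CFA over the saline level after adding 0.1 FPKM to both, and a gene is counted as higher or lower when this exceeds 0.5 in either direction. In LacZ-expressing mice the median change of the 49 genes was -0.31, against 0.01 for all genes. There, 18 of the 49 were lower with CFA (36.7%), where 3.03% of all genes were, and 1 was higher, where 5.48% of all genes were. In HDAC4 wt-expressing mice the median was -0.03 (all genes 0.00), 1 gene was lower (all genes 3.95%) and 5 were higher (all genes 5.76%). In HDAC4 3SA-expressing mice the median was 0.07 (all genes 0.02), 1 gene was lower (all genes 3.82%) and 4 were higher (all genes 10.2%). Without the 5 genes named singly in the rule, 14 of 45 genes were still lower in LacZ-expressing mice, with a median of -0.27. The count depends on how low levels are weighed: with 1 FPKM added to both levels 5 of the 49 were lower (all genes 1.21%, median of the 49 -0.13), and with a minimum of 2 FPKM 4 of 22 were (all genes 1.69%, median of the 22 -0.081). No gene passed this fold in the same direction in all 3 vectors (all genes 0.833%), and 24 of the 49 passed it in none (all genes 78.2%). The difference between vectors could not be tested with 1 value per group.

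**Figure D1:**
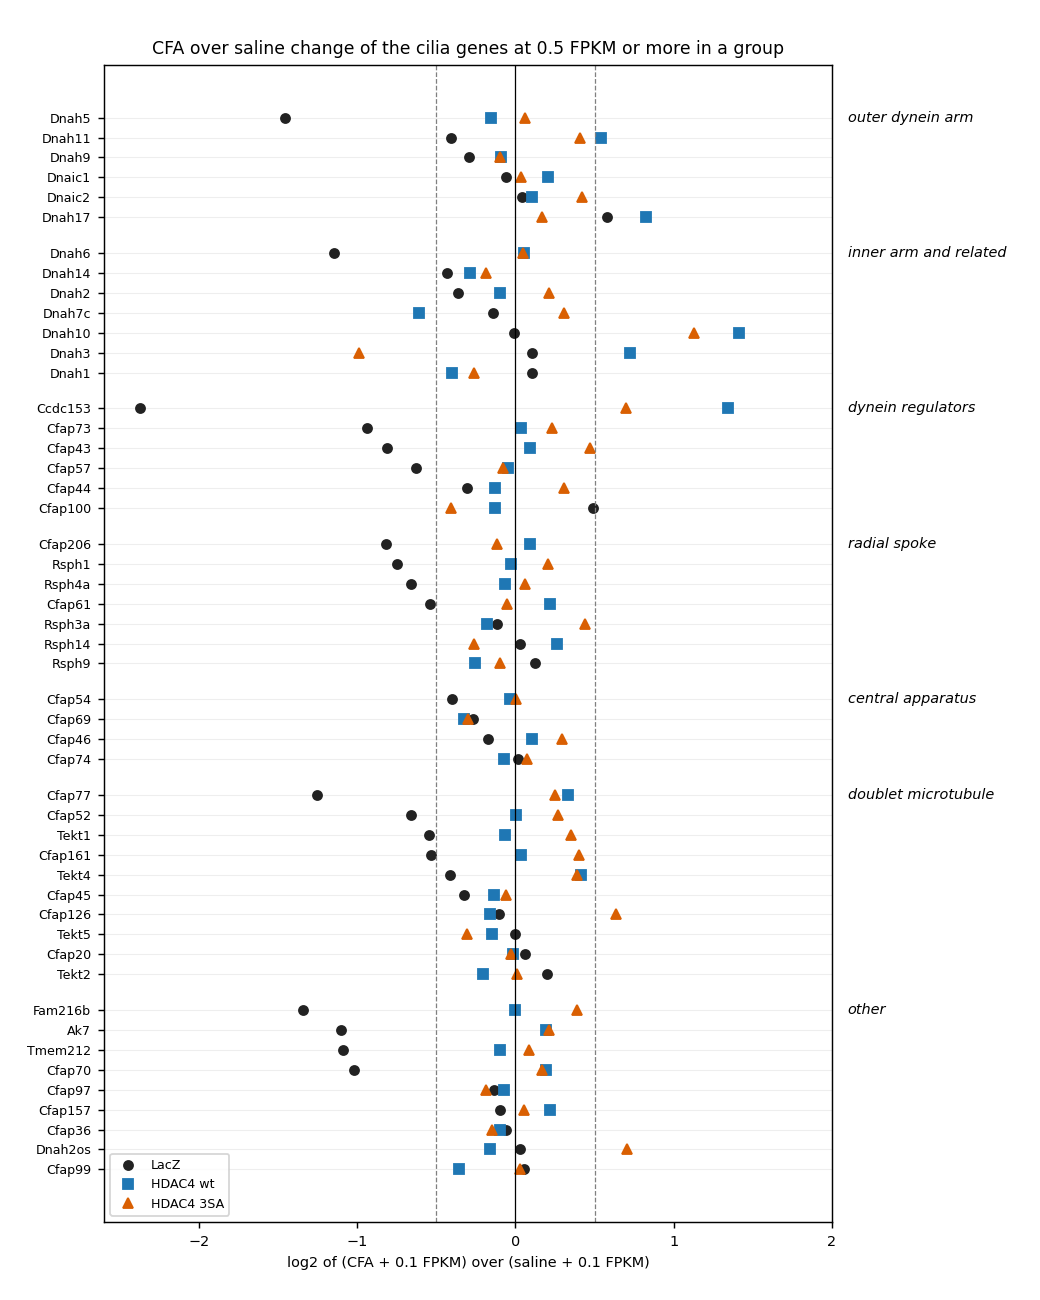
The plot shows, for each of the 49 genes (rows, grouped by role), the log2 change of CFA over saline in LacZ (circles), HDAC4 wt (squares) and HDAC4 3SA (triangles), with 1 value per vector and dashed lines at a change of 0.5 in either direction. Among the LacZ circles 18 lie left of the lower line, whereas 1 square and 1 triangle do.

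The genes named singly in the rule show the levels behind these counts. Ak7 stood at 1.54 FPKM in LacZ saline and 0.662 in LacZ CFA, at 1.34 and 1.55 in the HDAC4 wt groups and at 1.43 and 1.67 in the HDAC4 3SA groups (chr12:105706056-105782444). LacZ CFA was the low group, and the other 5 lay close together. Fam216b, which codes for a protein of little known function, was listed at 1.52 and 0.537 FPKM in LacZ saline and CFA, 1.15 and 1.15 with HDAC4 wt, and 1.06 and 1.41 with HDAC4 3SA (chr14:78080213-78089007). Tmem212, a membrane protein gene, had 1.92 and 0.848 FPKM with LacZ, 2.18 and 2.03 with HDAC4 wt, and 2.05 and 2.18 with HDAC4 3SA (chr3:27866031-27896368). The log2 changes in LacZ-expressing mice were -1.10 for Ak7, -1.35 for Fam216b and -1.09 for Tmem212, and none of these 3 passed 0.5 in either HDAC4 vector. Hydin was below the minimum in every group, with 0.184 and 0.14 FPKM in the LacZ, 0.212 and 0.217 in the HDAC4 wt and 0.175 and 0.308 in the HDAC4 3SA groups.

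Ccdc153, which codes for a subunit of the nexin-dynein regulatory complex that links neighbouring doublets, had 2 loci at the same place (chr9:44240681-44247320), 1 for each strand. The tables print no strand, but the locus identifiers of a chromosome run through one strand and then the other, which matched the annotated strand (GENCODE M21) for 97.4% to 99.5% of the genes with 1 locus, depending on the chromosome. By this order the locus taken, the higher of both, lies on the strand opposite to the gene. It read 8.04 FPKM in LacZ saline and 1.47 in LacZ CFA, 4.44 and 11.4 in the HDAC4 wt groups and 4.17 and 6.82 in the HDAC4 3SA groups, which are log2 changes of -2.37, 1.34 and 0.70. The locus on the strand of the gene read 4.44 and 1.92 FPKM with LacZ, 6.11 and 6.4 with HDAC4 wt and 5.62 and 6.06 with HDAC4 3SA, with log2 changes of -1.17, 0.07 and 0.11. Both loci were lowest in LacZ CFA, and only the opposite-strand locus was past 0.5 with the HDAC4 vectors.

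**Figure D2:**
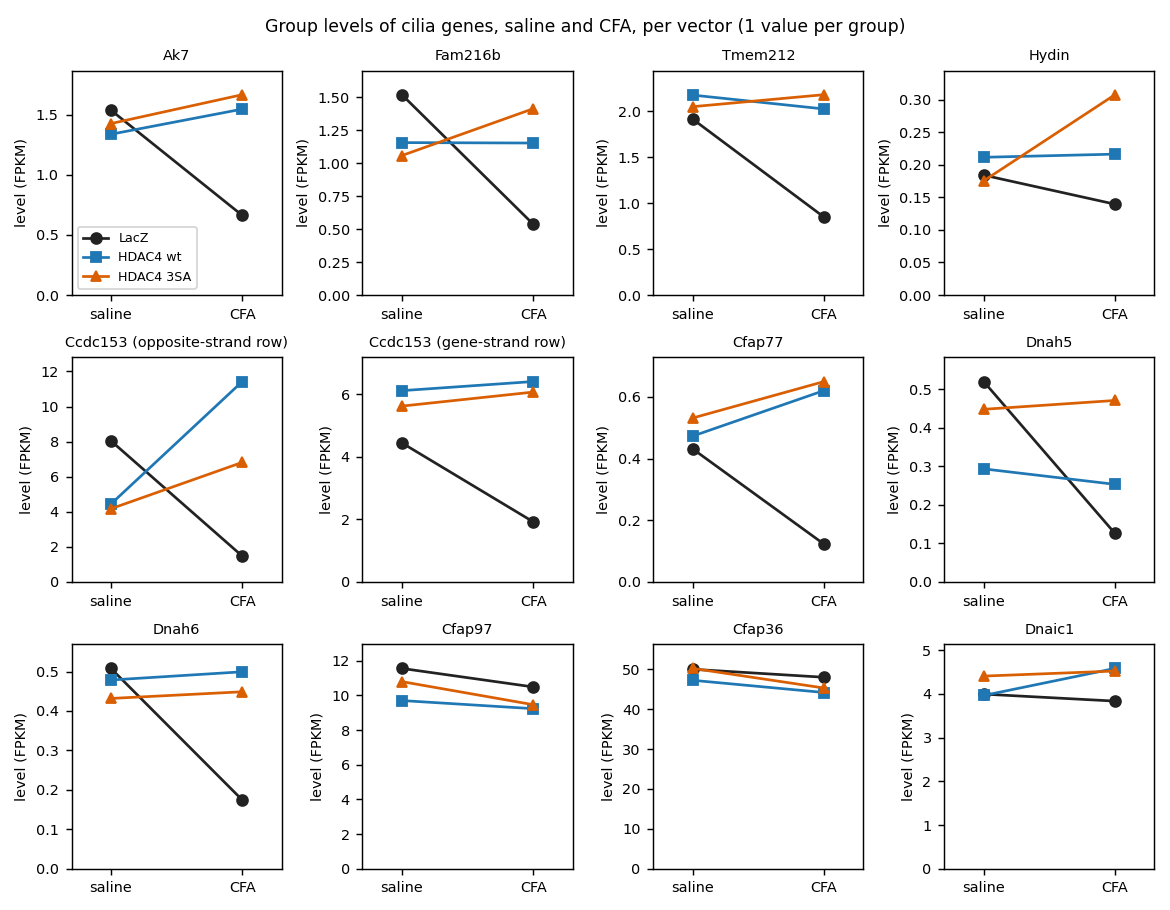
Each panel gives the level (FPKM, linear axis from 0) of 1 gene in the saline and CFA group of each vector, with 1 value per group and lines joining the groups of a vector; Ccdc153 is drawn for both strands. LacZ CFA is the lowest point in the panels of Ak7, Fam216b, Tmem212, Ccdc153, Cfap77, Dnah5 and Dnah6, while Cfap36 and Cfap97 lie at similar levels in all groups.

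Loci that cover only a part of a gene were frequent among the long dynein genes. At 13 of the 49 genes the place of the locus held under 50% of the annotated exon bases, and at 3 (Dnah2, Dnah7c and Ccdc153) the locus lay on the opposite strand. The Dnah2 locus spans 122 bases outside the annotated exons, and the Dnah17 locus spans 145 bases. The count was therefore repeated with the locus of the annotated strand that covers most of the exons. Then 18 of 47 genes at the minimum level were lower in LacZ-expressing mice (all genes 2.81%) and 2 were higher (all genes 5.29%), Dnah17 and Dnah14. Dnah14 turned from a log2 change of -0.43 at its first locus (0.983 and 0.703 FPKM, 505 bases, no exon bases) to 0.90 at the other (0.525 and 1.07 FPKM). In HDAC4 wt-expressing mice 0 were lower (all genes 3.59%) and 4 higher (all genes 5.2%), and in HDAC4 3SA-expressing mice 1 was lower (all genes 3.55%) and 3 were higher (all genes 10%). Among the 35 genes whose first locus lies on the annotated strand and covers at least 50% of the exon bases, 14 were lower (all genes under the same conditions 1.33%) and 0 higher (3.98%) with LacZ, 0 lower (1.89%) and 0 higher (3.22%) with HDAC4 wt, and 0 lower (2.44%) and 2 higher (8.13%) with HDAC4 3SA.

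Of the outer dynein arm genes, which set beat frequency, 6 of 7 reached the minimum level. Dnah5, a heavy chain, was at 0.52 and 0.126 FPKM in LacZ saline and CFA, 0.294 and 0.253 with HDAC4 wt and 0.448 and 0.471 with HDAC4 3SA, a log2 change of -1.46 with LacZ; its place differs between the tables. Dnah17 was the only gene higher in LacZ-expressing mice (6.16 and 9.25 FPKM, log2 change 0.58) and was also higher with HDAC4 wt (9.52 and 16.9, log2 change 0.82), at the locus of 145 bases. Dnah11 passed 0.5 with HDAC4 wt alone (0.164 and 0.284 FPKM, log2 change 0.54). The intermediate chains passed 0.5 in no vector. Dnaic1 lay between 3.84 and 4.58 FPKM in all 6 groups, and Dnaic2 at 1.67 and 1.72 with LacZ, 3 and 3.23 with HDAC4 wt and 2.3 and 3.11 with HDAC4 3SA.

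Of 10 further heavy chain genes, those of the inner arms and Dnah14, whose place in the axoneme is not assigned here, 7 reached the minimum. Only Dnah6 was lower with LacZ, at 0.508 and 0.174 FPKM in saline and CFA (log2 change -1.15), against 0.479 and 0.499 with HDAC4 wt and 0.432 and 0.449 with HDAC4 3SA. Its locus holds 5.6% of the exon bases. Of the 49 genes, 6 reached 0.5 FPKM in 1 group alone, so the minimum admitted them through the group in which they were high. These were Dnah5 and Dnah6 (LacZ saline), Dnah9 (HDAC4 wt saline), Dnah10 (HDAC4 wt CFA), Cfap57 (HDAC4 3SA saline) and Dnah11 (HDAC4 3SA CFA), of which Dnah5, Dnah6 and Cfap57 are among the 18 lower with LacZ. Dnah10 was level with LacZ (0.271 and 0.268 FPKM) and higher with HDAC4 wt (0.232 and 0.783, log2 change 1.41) and HDAC4 3SA (0.156 and 0.458, log2 change 1.13). Dnah3 went in opposite directions in the HDAC4 vectors, with 2.26 and 3.8 FPKM in HDAC4 wt saline and CFA (log2 change 0.72) and 3.42 and 1.68 in HDAC4 3SA (log2 change -0.99), at a locus of 681 bases. Dnah7c was lower with HDAC4 wt (1.88 and 1.2 FPKM, log2 change -0.61), at an opposite-strand locus of 479 bases, while its locus on the annotated strand read 0.0573 and 0.07 FPKM (log2 change 0.11). Dnah1, an inner arm heavy chain, was at 2.1 and 2.26 FPKM with LacZ (log2 change 0.10), 2.69 and 2.01 with HDAC4 wt (-0.40) and 2.35 and 1.95 with HDAC4 3SA (-0.26), at a locus with 3.05% of the exon bases. The locus taken for Dnah2, 122 bases on the opposite strand and outside the annotated exons, was the second highest by FPKM. It ranged from 27.2 in LacZ CFA to 64.5 in HDAC4 3SA CFA without passing 0.5 within a vector. The Dnah2 locus on the annotated strand lay under the minimum in every group. It read 0.378 and 0.176 FPKM with LacZ (log2 change -0.79), 0.255 and 0.314 with HDAC4 wt and 0.358 and 0.407 with HDAC4 3SA.

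All 6 genes of proteins that anchor or regulate dyneins reached the minimum. Beside Ccdc153, Cfap43, Cfap57 and Cfap73 were lower in LacZ-expressing mice (4 of 6, all genes 3.03%). With HDAC4 wt 0 of 6 were lower (all genes 3.95%) and 1 was higher (5.76%). With HDAC4 3SA 0 were lower (all genes 3.82%) and 1 was higher (10.2%). The higher one was Ccdc153 at its opposite-strand locus in both. Cfap73, whose product belongs to a complex at the base of an inner arm, was at 0.72 and 0.328 FPKM (log2 change -0.94) with LacZ, 0.775 and 0.796 with HDAC4 wt and 0.711 and 0.852 with HDAC4 3SA. Cfap43, whose product tethers an inner arm, was at 0.739 and 0.379 with LacZ, 1.09 and 1.17 with HDAC4 wt and 0.834 and 1.19 with HDAC4 3SA, at places that differ between the tables. Cfap100, a partner of Cfap73, went the other way without passing 0.5, from 3.71 to 5.24 FPKM with LacZ (log2 change 0.49), and was at 4.31 and 3.93 with HDAC4 wt and 4.79 and 3.59 with HDAC4 3SA.

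Radial spoke genes were lower in LacZ-expressing mice in 4 of 7 cases (all genes 3.03%), and in 0 of 7 with HDAC4 wt and with HDAC4 3SA, where the shares of all genes, 3.95% and 3.82%, amount to less than 1 gene in 7. Rsph1, a spoke head protein, was at 3.69 and 2.16 FPKM with LacZ (log2 change -0.75), 4.69 and 4.59 with HDAC4 wt and 4.37 and 5.06 with HDAC4 3SA. Rsph4a, another spoke head protein, had 1.35 and 0.817 FPKM with LacZ (log2 change -0.66) against 1.32 to 1.49 in the other 4 groups. Cfap206 and Cfap61, which belong to spoke bases and stalks, changed by -0.82 and -0.54 on the log2 scale with LacZ. Rsph9, a further spoke head protein, did not follow, with 4.48 and 4.88 FPKM in the LacZ groups. Central apparatus genes passed 0.5 in no vector (0 of 4 at the minimum level). Of all genes, 3.03% were lower and 5.48% higher with LacZ, and 3.95% and 5.76% with HDAC4 wt. With HDAC4 3SA these shares were 3.82% and 10.2%. In each vector they amount to less than 1 gene in 4, so this count does not set these genes apart. Cfap69, which serves the central pair, had a log2 change of -0.27, -0.32 and -0.30 in LacZ, HDAC4 wt and HDAC4 3SA.

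Of the genes for tektins and other proteins of the doublet microtubules, 4 of 10 were lower in LacZ-expressing mice (all genes 3.03%) and 0 of 10 in each other vector (all genes 3.95% with HDAC4 wt and 3.82% with HDAC4 3SA, less than 1 gene in 10). Cfap77 had 0.431 and 0.122 FPKM with LacZ (log2 change -1.26), 0.473 and 0.621 with HDAC4 wt and 0.532 and 0.65 with HDAC4 3SA. Cfap52 was at 0.8 and 0.469 FPKM with LacZ (log2 change -0.66), with 1.08 to 1.33 in the other 4 groups. Tekt1 was at 1.46 and 0.967 with LacZ, 2.43 and 2.32 with HDAC4 wt and 1.94 and 2.51 with HDAC4 3SA. Here the LacZ saline level lay below the 4 values of the other vectors, as for 7 of the 18 genes lower with LacZ, while it lay within their range for 7 and above it for 4. Tekt2 lay between 1.18 and 1.43 FPKM in all 6 groups, with log2 changes of 0.20, -0.21 and 0.01 in LacZ, HDAC4 wt and HDAC4 3SA. Cfap126 was higher with HDAC4 3SA (6.09 and 9.52 FPKM, log2 change 0.64) and at 3.86 and 3.59 FPKM with LacZ. Tekt5, a tektin known from sperm, was at 18.6 FPKM in both LacZ groups and between 11.6 and 14.4 in the others, and Cfap20, which joins the tubules of a doublet, lay between 5.45 and 5.88 in all groups.

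The other genes include the highest of all, Cfap36, with 44.2 to 50.2 FPKM, and Cfap97, with 9.24 to 11.6, neither of which passed 0.5. Beside Ak7, Fam216b and Tmem212, Cfap70 was lower with LacZ (0.533 and 0.212 FPKM, log2 change -1.02). Cfap99 was at 1.19 and 1.24 FPKM with LacZ (log2 change 0.05), 0.724 and 0.542 with HDAC4 wt (-0.36) and 0.769 and 0.788 with HDAC4 3SA (0.03). Dnah2os, a noncoding gene antisense to Dnah2 that the name pattern takes in, was higher with HDAC4 3SA (0.274 and 0.51 FPKM, log2 change 0.71).

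Seen over the 6 groups, LacZ CFA was the lowest in 28 of the 49 genes (57.1%) and for 19.7% of all genes. The 28 include Ak7, Ccdc153 and Fam216b, which were selected on their decrease in LacZ-expressing mice. They also include Dnah5 and Dnah6, which the minimum admitted through LacZ saline alone. The part of these genes in the count follows from the selection. The levels of the vectors come from tables normalised apart, so the order of the groups is descriptive. The summed level of the 18 genes lower with LacZ, whose LacZ difference follows from how they were picked, was 27.0 FPKM in LacZ saline and 11.2 in LacZ CFA, 25.7 and 33.0 with HDAC4 wt and 24.2 and 30.1 with HDAC4 3SA. Without the opposite-strand locus of Ccdc153 it was 18.9 and 9.76 with LacZ, 21.2 and 21.5 with HDAC4 wt and 20.0 and 23.3 with HDAC4 3SA. Summed over all 49 genes it was 197 and 173, 214 and 218, and 223 and 232 FPKM in the same order, of which Cfap36, Dnah2 and Tekt5 made up a large part. Without these 3 genes the sums were 93.2 and 79.3, 104 and 116, and 103 and 111 FPKM. Without the Dnah17 and Ccdc153 loci as well they were 79.0 and 68.6, 90.5 and 88.1, and 89.8 and 93.9 FPKM, so that the direction turned with HDAC4 wt.

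Most genes that were lower with LacZ had low levels. Of the 15 genes whose highest group lay from 0.5 to 1 FPKM, 8 were lower (10.9% of all genes at these levels), and of the 12 from 1 to 2 FPKM, 6 were (5.24% of all genes). The 8 include Dnah5 and Dnah6, which the minimum admitted through LacZ saline alone. The 6 include Ak7 and Fam216b, which were selected on their decrease with LacZ. These counts therefore rest in part on the selection. From 2 to 5 FPKM 2 of 11 were lower (all genes 2.4%), and above 5 FPKM 2 of 11 (all genes 1.5%), one being the opposite-strand locus of Ccdc153. In HDAC4 wt-expressing mice 0 of the 15 and 0 of the 12 lowly expressed genes were lower, where 12.7% and 7.03% of all genes were, and likewise 0 and 0 in HDAC4 3SA-expressing mice, where 8.73% and 6.57% were.

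**Figure D3:**
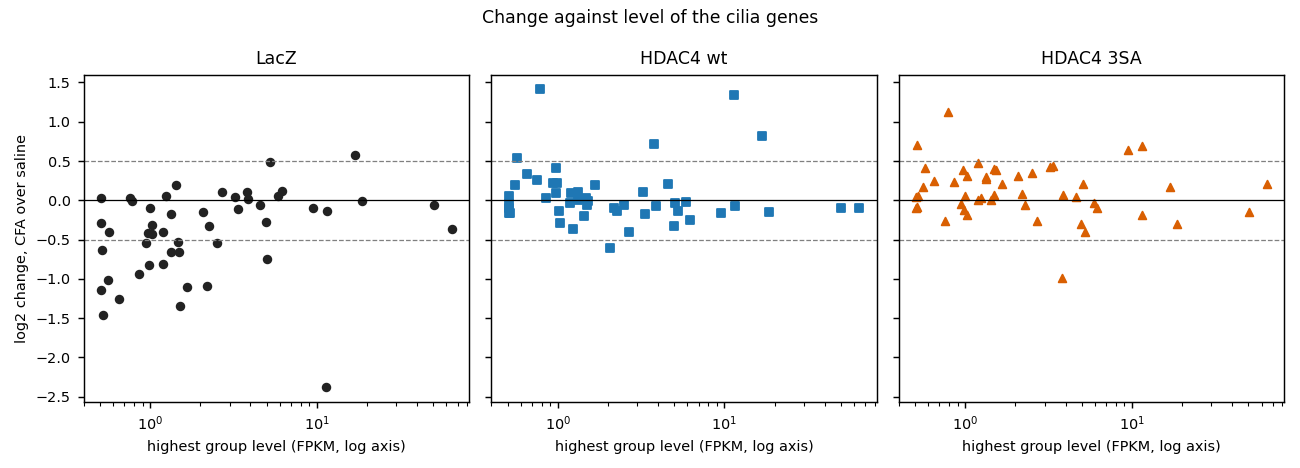
Log2 change of CFA over saline (vertical axis) against the level in the highest group (FPKM, log axis) for the 49 genes in each vector, with dashed lines at a change of 0.5 in either direction. Of the 18 LacZ points under the lower line, 14 lie left of 2 FPKM.

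Cilia genes that the name rule does not cover were read from lists, which were drawn up with the results of the rule known. Of 67 genes in 6 lists of motile cilia parts and their assembly, 49 reached the minimum level. With LacZ, 9 of them were lower (18.4%, all genes 3.03%) and 3 higher (6.12%, all genes 5.48%), with a median of -0.11. With HDAC4 wt 2 were lower (4.08%, all genes 3.95%) and 1 higher (2.04%, all genes 5.76%), with a median of -0.06. With HDAC4 3SA 0 were lower (all genes 3.82%) and 4 higher (8.16%, all genes 10.2%), with a median of 0.12. The axonemal dynein light and light intermediate chains made up 4 of the 9, out of 6 listed genes at the minimum. Tctex1d1 was at 2.52 and 0.854 FPKM with LacZ (log2 change -1.46), 1.38 and 2.34 with HDAC4 wt (0.72) and 1.29 and 2.61 with HDAC4 3SA (0.96). Dnali1, which binds inner arm heavy chains, stood at 1.26 and 0.642 FPKM with LacZ, 1.79 and 1.71 with HDAC4 wt and 1.82 and 1.95 with HDAC4 3SA. Dynlrb2 and Tctex1d4 changed by -0.86 and -1.16 on the log2 scale with LacZ. The other 5 were Dnaaf1, a dynein assembly factor, Drc7 of the nexin-dynein regulatory complex (1.19 and 0.676 FPKM), Spef2, Iqub and Enkur. The transcription factors did not pass 0.5 in any vector (0 of 5). The shares of all genes given above amount to less than 1 gene in 5 in each vector. Rfx2 and Rfx3 changed by -0.28 and -0.06 on the log2 scale with LacZ. Foxj1 was not analysed here.

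Other genes known as ependymal markers were lower in part with LacZ. Of 22 at the minimum level, 9 were lower with LacZ (all genes 3.03%) and 0 higher (5.48%), with a median of -0.29. With HDAC4 wt 2 were lower (all genes 3.95%) and 0 higher (5.76%), with a median of 0.01, and with HDAC4 3SA 0 were lower (all genes 3.82%) and 2 higher (10.2%), with a median of 0.23. Iqca (0.528 and 0.162 FPKM with LacZ), 1700016K19Rik, Ak9, Morn5, Pifo, Ccdc146, Capsl, Mlf1 and Fam183b (5.1 and 3.42 FPKM) were the 9. The other 13 passed 0.5 in neither direction with LacZ. The 10 of low level were divided, with log2 changes above 0 for Hdc (0.42), Efhb (0.28), Riiad1 (0.19) and Meig1 (0.13) and below 0 for 1110017D15Rik (-0.48), 1700012B09Rik (-0.31), Ccdc113 (-0.28), Gm973 (-0.19), Ak8 (-0.16) and Lrriq1 (-0.011). The 3 abundant ones had log2 changes above 0 with LacZ (0.23 for Tppp3, 0.29 for Cd24a and 0.02 for Rarres2). Which spinal cells express the markers was not tested. Tppp3 was at 99.3 and 117 FPKM with LacZ, Cd24a at 49.4 and 60.2 and Rarres2 at 32 and 32.6. Genes of intraflagellar transport, which every ciliated cell uses, were lower in 1 of 24 cases with LacZ (Ift46), near the share of all genes (3.03%). They passed 0.5 in 0 of 24 with HDAC4 wt (all genes 3.95% lower and 5.76% higher). With HDAC4 3SA they also passed it in 0 of 24 (all genes 3.82% and 10.2%). Genes of the primary cilium and the BBSome, a trafficking complex, passed 0.5 in 0 of 15 in each of the 3 vectors. Of all genes, 3.03% were lower and 5.48% higher with LacZ. The shares were 3.95% and 5.76% with HDAC4 wt, and 3.82% and 10.2% with HDAC4 3SA.

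**Figure D4:**
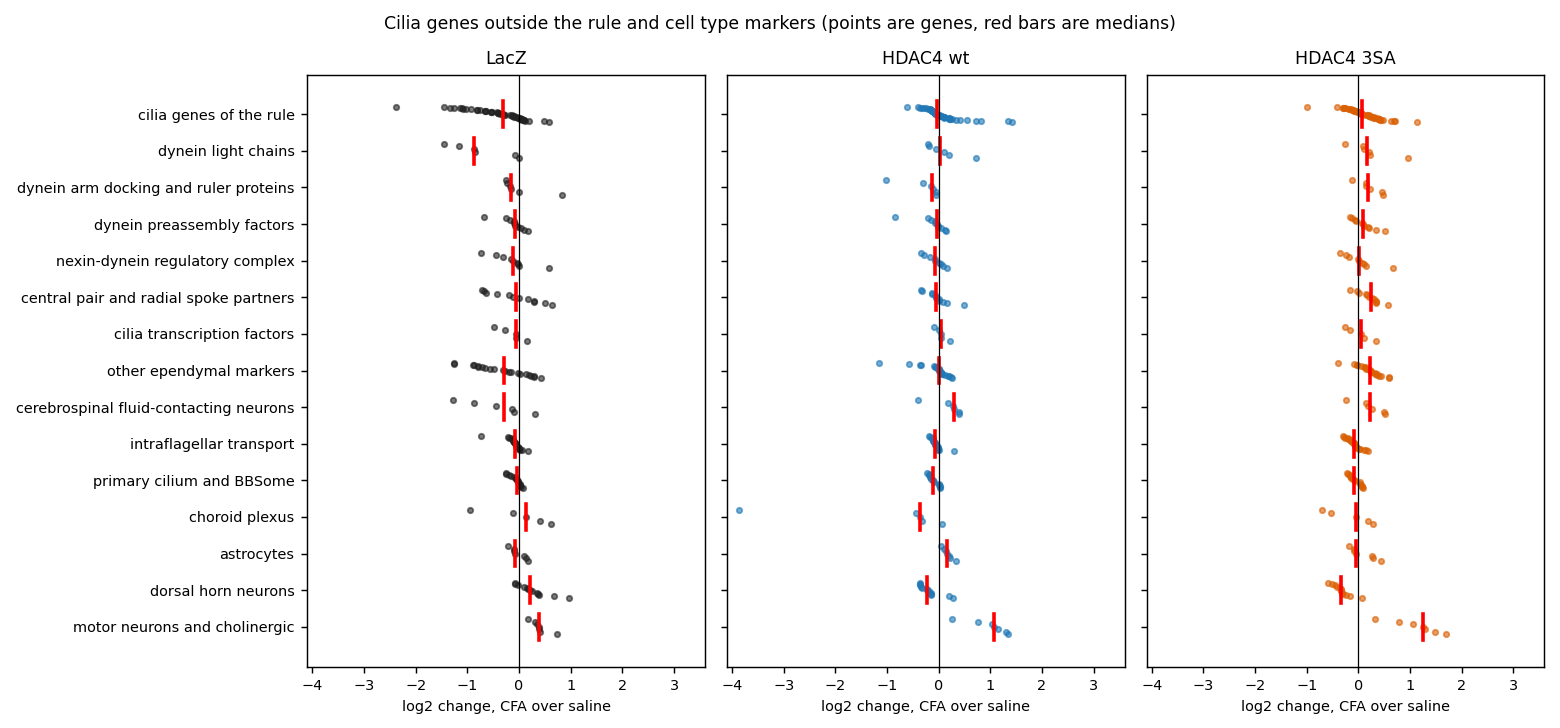
Each point is a gene at the minimum level, placed by its log2 change of CFA over saline, for the genes of the rule (top row) and for lists of other cilia genes and cell type markers; red bars are list medians. With LacZ the rule's genes, the dynein light chains, the other ependymal markers and the markers of cerebrospinal fluid-contacting neurons have medians of -0.31, -0.86, -0.29 and -0.29, and those of intraflagellar transport and primary cilium genes are -0.07 and -0.05.

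Markers of several other cell types also differed between CFA and saline, though not of all that were read. Their counts stand beside these shares of all genes. With LacZ 3.03% of all genes were lower and 5.48% higher. With HDAC4 wt these shares were 3.95% and 5.76%, and with HDAC4 3SA 3.82% and 10.2%. Cerebrospinal fluid-contacting neurons surround the central canal and carry the channel Pkd2l1. With LacZ, 2 of 6 markers at the minimum level were lower (Pkd1l2 and Myo3b) and Pkd2l1 was at 3.57 and 2.58 FPKM (log2 change -0.45), against 3.46 and 4.56 with HDAC4 wt (0.39) and 3.32 and 4.7 with HDAC4 3SA (0.49). Their neuropeptide Sst, also made by dorsal horn neurons, went the other way (log2 changes 0.31, -0.40 and -0.24). Markers of dorsal horn neurons had medians of 0.21, -0.23 and -0.33 in LacZ, HDAC4 wt and HDAC4 3SA, with summed levels of 384 and 436, 405 and 357, and 369 and 297 FPKM. Markers of motor neurons and cholinergic cells, which lie ventral to the dorsal horn, were higher in 1 of 7 cases with LacZ, and in 6 of 7 with each HDAC4 vector (medians 0.38, 1.07 and 1.25; Chat 4.57 and 5.97, 2.25 and 5.09, and 4.45 and 11.0 FPKM). Neutrophil markers were higher in 8 of 8 cases with LacZ (summed level 11.2 and 113 FPKM) and lower in 6 of 8 with each HDAC4 vector (41.7 and 28.5, and 62 and 38.7 FPKM). Skeletal muscle markers were higher in 7 of 8 cases with LacZ and lower in 7 of 8 with HDAC4 wt and 2 of 8 with HDAC4 3SA. Schwann cell markers were higher in 5 of 9 with LacZ and lower in 4 of 9 with HDAC4 3SA, and leptomeningeal markers were higher in 4 of 10 cases with LacZ, in 2 with HDAC4 wt and in 2 with HDAC4 3SA, where 1 was lower. The part of these shifts in the levels of the cilia genes was not tested.

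The defining marker of the choroid plexus was near 0 in most groups, as Ttr was between 0.0633 and 0.151 FPKM in 5 groups and at 3.16 in HDAC4 wt saline. Of 5 choroid plexus genes at the minimum level, 1 was lower (Folr1, 0.544 and 0.233 FPKM) and 1 higher (Ttr) with LacZ, with a median of 0.13. With HDAC4 wt 1 was lower (Ttr), and with HDAC4 3SA 2 were (Sostdc1 and Kl). Astrocyte markers passed 0.5 in 0 of 7 cases in each of the 3 vectors, and markers of endothelial cells in 0 of 7. The shares of all genes beside the counts of these lists were 3.03% lower and 5.48% higher with LacZ. They were 3.95% and 5.76% with HDAC4 wt, and 3.82% and 10.2% with HDAC4 3SA. Microglial markers were higher in 7 of 9 cases with HDAC4 3SA, and in 0 of 9 with the other vectors. Of 9 oligodendrocyte markers 1 was lower with HDAC4 wt, of 9 pan-neuronal markers 1 was higher with HDAC4 wt, and both red blood cell markers at the minimum level were higher with LacZ.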

How the data were processed

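Per the labels, total RNA of dorsal spinal cord was sequenced for 18 mice in 6 groups. The authors made strand-specific poly-A libraries, mapped reads to mm10/GRCm38 with TopHat 2.0.14 and Bowtie 2.2.9, annotated with Ensembl 85, and deposited 1 Cuffdiff 2.0.0 table per vector. The deposited FPKM values are 1 estimate per group over its 3 mice. The tables also hold the authors' fold changes, test statistics, p-values and q-values, which were not used. No column of another series was present (0).

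Of 34579 loci, 25736 have 1 gene name, the same in the 3 tables. Changes were computed with Python 3.11.15 and pandas 2.3.3 (checked on simulated data) and set beside all genes with the same minimum. Starts were read as counted from 0 and are printed counted from 1. Strand and exons came from GENCODE M21. No test was made, because the tables hold no value per mouse. They give no read counts either, so the depth behind a value is not known beyond the minimum per library that the study's methods state. The members and the gene lists were chosen with earlier results of these data known. Genes named were those named singly in the rule, the 12 with the highest mean, the 5 largest rises and falls per vector, those nearest the minimum, and listed genes; others past the fold were named after their values were seen. Alternatives covered the added constant, minimum, fold, centring, loci and members; those on strand, exon cover and single loci were chosen after seeing the data.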

Additional observations from a re-analysis of the deposited data

Results flagged for a closer look

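Ccdc153 and Dnah3 went past a log2 change of 0.5 in opposite directions in 2 vectors. The change of Ccdc153 with HDAC4 wt exceeded that with LacZ by 3.72 on the log2 scale, and that with HDAC4 3SA exceeded it by 3.07, at the locus of the opposite strand. The change of Dnah3 with HDAC4 3SA minus that with HDAC4 wt was -1.71, at a locus of 681 bases that holds 0.902% of the exon bases. These differences rest on 1 value per group and were not tested.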

How the results depend on the processing

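No paired analysis was possible because the tables give 1 value per group, and for the same reason no replicate could be left out. The LacZ decrease kept its direction under each alternative and shrank where low levels count less. With 1 FPKM added the LacZ median was -0.13 and 5 genes were lower (all genes 1.21%); with a minimum of 1 FPKM these were -0.16 and 10 of 34 (all genes 2.1%), and with a minimum of 2 FPKM -0.081 and 4 of 22 (all genes 1.69%). Beyond a log2 change of 1, 8 were lower (all genes 0.887%) and 0 higher (1.45%) with LacZ, 2 higher (1.96%) and 0 lower (1.22%) with HDAC4 wt, and 1 higher (3.09%) and 0 lower (0.94%) with HDAC4 3SA. Beyond 0.25, 2 were higher (all genes 12.9%) and 27 lower (6.73%) with LacZ, 8 higher (14.3%) and 6 lower (10.3%) with HDAC4 wt, and 16 higher (20.5%) and 6 lower (12.7%) with HDAC4 3SA. The small counts of the HDAC4 vectors moved as follows. With 1 FPKM added, 0 were lower with HDAC4 wt (all genes 1.66%) and 2 higher with HDAC4 3SA (6.01%). With a minimum of 1 FPKM, and equally of 2 FPKM, 3 were higher with HDAC4 wt (all genes 4.91% and 4.36%) and 2 with HDAC4 3SA (9.03% and 8.22%). With no minimum, 3 of 59 were lower with HDAC4 wt (all genes above 0 FPKM 4.61%) and 7 higher with HDAC4 3SA (11%). With the loci of a name summed, 2 of 51 were lower with HDAC4 wt (all genes 3.76%). With the locus of the annotated strand, 2 were higher with LacZ and 0 lower with HDAC4 wt, Dnah7c with HDAC4 wt turned from -0.61 to 0.11, and Dnah14 with LacZ from -0.43 to 0.90. With loci of the annotated strand that hold at least 50% of the exon bases, 0 were higher with LacZ, 0 higher and 0 lower with HDAC4 wt, and 2 higher and 0 lower with HDAC4 3SA. The ratio of summed levels, CFA over saline, was 0.88 with LacZ, 1.02 with HDAC4 wt and 1.04 with HDAC4 3SA, and moved by less than 10% under its 3 alternatives, of which that without the Dnah17 and Ccdc153 loci was chosen after seeing the data and gave 0.973 with HDAC4 wt. The cause of these shifts was not tested.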
